A study of Mus musculus with 22 samples.

Results

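Iron handling was examined through 10 genes for reduction, uptake, storage, export and sensing of iron, of 55414 genes in the count table. Members were chosen by symbol (Cybrd1, Steap4, Tfrc, Slc11a2, Slc39a14, Fth1, Ftl1, Ncoa4, Slc40a1 and Ireb2), and all 10 had enough counts to be tested among 17554 genes. The list was drawn up with earlier results from these libraries known, among them the fall of Cybrd1 on day 2, so that value is given below as a description with no test. The cells were mouse back-skin fibroblasts sorted as negative for CD31, CD45, CD117 and EpCAM, positive for CD34 and PDGFRα, and alive by DAPI. All mice, CTRL included, had the same back surgery with a tunnel under the skin. EXP mice also received an expander hydrogel near the neck, and CTRL mice received none. There were 4 CTRL and 5 EXP libraries of day 1, 3 of each arm of day 2, and 4 and 3 of day 4. Strain, age and sex are not given in the sources used here, nor is it stated that each library came from a separate mouse, so p-values measure the spread between these libraries. The comparison of EXP with CTRL on a day asks how fibroblasts under the expander differ from those after surgery alone.

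Cells take up iron mainly as transferrin bound to the transferrin receptor, reduce it inside the endosome with STEAP enzymes and move it into the cytosol with divalent metal transporters. Iron that is not used is stored in ferritin, a shell of heavy and light chains, and leaves the cell through ferroportin. Iron regulatory proteins, among them the product of Ireb2, bind a hairpin called the iron-responsive element. Bound in the 5′ UTR it blocks translation of ferritin and ferroportin, and bound in the 3′ UTR it protects the mRNA of the transferrin receptor from decay.

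The hairpins are shown because, in members that hold one, their place sets control of translation apart from control of mRNA stability. The counts here measure only mRNA. Sites were searched in GENCODE M21 transcripts (build GRCm38) as an unpaired C, 5 bases, the loop CAGTGN and 5 more bases, where both runs of 5 bases pair with each other, G with T allowed. They are written 5′ to 3′ on the transcript's strand, with the 6 loop bases in capitals.
Fth1, 5′ UTR: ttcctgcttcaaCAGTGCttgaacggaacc
Ftl1, 5′ UTR: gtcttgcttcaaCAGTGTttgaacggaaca
Slc40a1, 5′ UTR: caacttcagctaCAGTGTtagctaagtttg
Tfrc, 3′ UTR, hairpin 1: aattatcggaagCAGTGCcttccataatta
Tfrc, 3′ UTR, hairpin 2: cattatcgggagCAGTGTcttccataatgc
Tfrc, 3′ UTR, hairpin 3: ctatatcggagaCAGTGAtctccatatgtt
Tfrc, 3′ UTR, hairpin 4: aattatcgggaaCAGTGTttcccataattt
Such a match was found in the 5′ UTR of 3 of the 10 members and in the 3′ UTR of 1, against 0.128% and 0.58% of 21899 genes. The hairpins of Fth1 and Ftl1 hold the same 5 bases before and after the loop. No match in the other members says only that these letters were not in the transcripts searched. A hairpin with a mismatched or extra base in its arms would be missed.

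Depth and purity bear on all values that follow. Library totals ran from 21461294 to 30210204 counts. Levels are given as CPM, the count of a gene scaled to a library of 1000000 counts. The limit that a count of 0 allows, 3 counts, corresponds to 0.0993 to 0.140 CPM, counting error only. Among the genes of the sort on library totals, Pdgfra lay at 185 to 1290 CPM and Cd34 at 274 to 2140, while Pecam1, Ptprc, Kit and Epcam reached at most 3.76, 0.248, 0.752 and 1.89. The 6 listed fibroblast markers were detected in every group, and their summed level was lower in EXP, with 91600 to 118000 CPM against 142000 to 181000 on day 1, 61000 to 127000 against 210000 to 230000 on day 2 and 53300 to 171000 against 170000 to 210000 on day 4. The part of this difference in the results below was not tested. A group of 192 genes that vary with Rnf10 set 7 libraries above the other 15, with a gap of 0.696 in mean log2 CPM. The high side held CTRL replicates 1 to 3 and EXP replicates 1 and 2 of day 1, and CTRL replicates 3 and 4 of day 4. The labels do not say what this split is, and values within a side are given where they change a call.

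On day 1, 6 members were higher in EXP and 1 was lower, 70.0% of the 10, against 28.6% of all genes tested (13.9% higher, 14.7% lower; edgeR quasi-likelihood test, adjusted p under 0.05 over all genes). On day 2 the members called were 3 higher and 1 lower, against 13.4% of all genes (7.72% higher, 5.71% lower), and on day 4 they were 2 higher and 1 lower, against 22.5% (12.8% higher, 9.66% lower). The lower member was Cybrd1 each time. Since the members were listed with earlier results known, its day 2 value among them, nothing is read from the counts of any day. Whether the effect differed between days passed for 2 members, Fth1 and Ftl1, against 8.82% of all genes. The median log2 fold change of the members went from 0.69 on day 1 to 0.21 on day 2 and -0.04 on day 4, beside 0.02, 0.02 and 0.03 for all genes. Tfrc rose on all 3 days, Slc39a14 on days 1 and 2, Steap4 on days 2 and 4, and Slc11a2, Ireb2 and both ferritin chains on day 1, while the ferric reductase gene Cybrd1 was low in every EXP library. Of the 17554 genes tested, 1.78% were called lower on all 3 days, a share from which nothing is read for Cybrd1, because its day 2 value entered the choice. EXP and CTRL values did not overlap for 7 members on day 1, 7 on day 2 and 3 on day 4, while this held for 23.9%, 39.3% and 25.5% of all genes. For the same reason nothing is read from these counts of members without overlap either, and each includes Cybrd1. In bulk RNA, fewer cells of a type and less RNA per cell cannot be told apart.

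**Figure D1:**
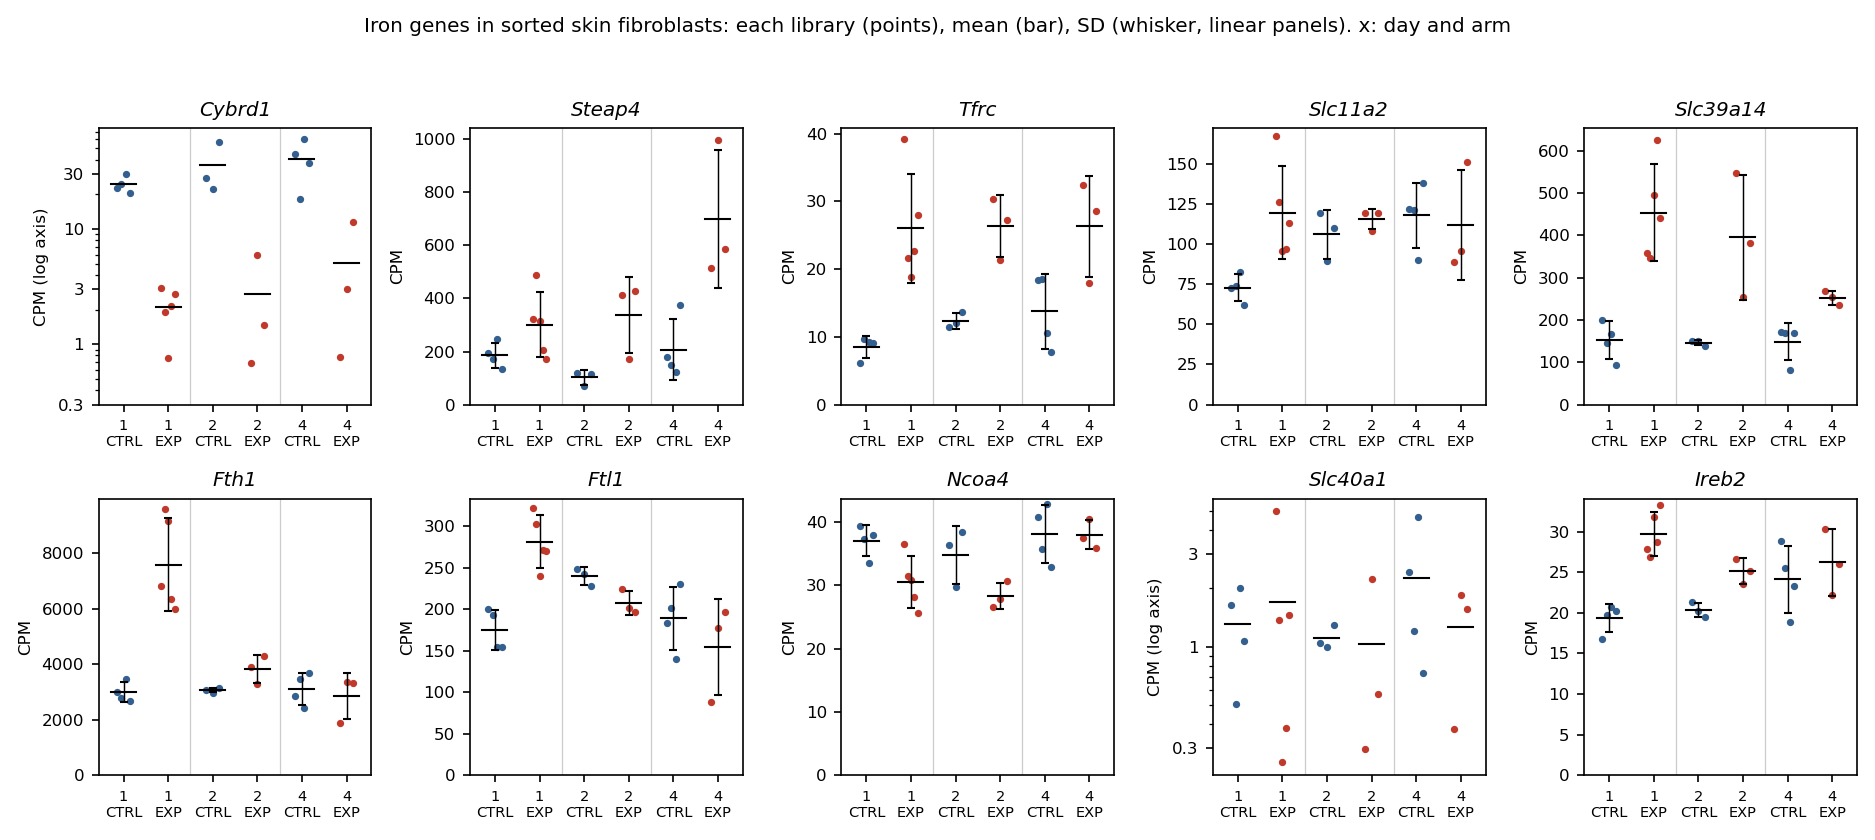
Each panel plots TMM-scaled CPM of 1 member in every library (points, CTRL blue, EXP red) by day and arm, with the group mean as a bar and the SD as a whisker in panels with a linear axis. Cybrd1 and Slc40a1 are on log axes. In Cybrd1 all 11 EXP points lie below all 11 CTRL points, and in Slc39a14 all EXP points lie above all CTRL points.

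Cybrd1 encodes duodenal cytochrome b, a membrane reductase that turns ferric into ferrous iron. On day 1 the CTRL libraries held 22.6, 24.7, 30.2 and 20.5 CPM of Cybrd1 and the EXP libraries 3.07, 1.90, 0.763, 2.13 and 2.74. Day 2 gave 27.8, 22 and 57.2 CPM in CTRL and 0.693, 5.94 and 1.48 in EXP. Day 4 gave 45.0, 18.2, 60.1 and 37.1 CPM in CTRL and 0.778, 3.02 and 11.5 in EXP. No EXP library reached the lowest CTRL library of any day, although EXP libraries of days 2 and 4 differed among themselves by more than 5-fold. The log2 fold change was -3.53 on day 1 (SE 0.64, adjusted p 5.36e-04). It was -3.73 on day 2 (SE 0.81, described only). On day 4 it was -2.99 (SE 0.76, adjusted p 0.0103). Together this is a level in EXP of 0.0868, 0.0754 and 0.126 of CTRL. Without EXP replicate 2 the day 4 fall was -2.75 and no longer passed (adjusted p 0.0554), without EXP replicate 3 it was -4.40, and without EXP replicate 2 the day 2 value was -5.04. In a fit of the day 4 libraries alone it was -3.01 (adjusted p 0.0619), and among the low-side libraries of day 4 it was -2.64 (adjusted p 0.267).

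The genes whose log2 CPM ran most like that of Cybrd1 over the 22 libraries were Pcdh20 (Pearson r 0.963), a protocadherin, Col18a1 (0.958), a basement membrane collagen, Mamdc2 (0.954), Pid1 (0.953) and Tmem43 (0.952). The opposite pattern was closest in Gm7289 (-0.949), Acat3 (-0.939), an acetyl-CoA acetyltransferase, and Phb2 (-0.938), a mitochondrial prohibitin. These r values are descriptions, since the libraries fall into CTRL and EXP levels of Cybrd1 that stand apart and share their depth and scaling. Of the members, Slc39a14 ran most opposite to it, with r of -0.87.

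Steap4, a metalloreductase of the STEAP family, went the other way from Cybrd1. Its CPM on day 1 was 193, 170, 246 and 134 in CTRL and 322, 487, 315, 207 and 171 in EXP, which overlap. Day 2 had 118, 71.4 and 117 CPM in CTRL and 413, 172 and 427 in EXP, with every EXP library above every CTRL library. Day 4 had 179, 149, 122 and 377 CPM in CTRL and 516, 997 and 585 in EXP, again without overlap. The log2 fold change of 0.69 on day 1 did not pass (SE 0.36, adjusted p 0.156), whereas Steap4 rose by 1.72 on day 2 with an SE of 0.44 (adjusted p 0.0140). By day 4 the rise was 1.76 with an SE of 0.40 (adjusted p 0.00550). Whether the effect differed between days did not pass a test (adjusted p 0.283). The day 2 call was lost without CTRL replicate 2 (1.52, adjusted p 0.0763), EXP replicate 1 (1.56, 0.0672) or EXP replicate 3 (1.51, 0.0575), and among the low-side libraries of day 4 the value was 2.09 (adjusted p 0.128). With the split as a covariate, or among high-side libraries alone, the day 1 difference was 0.90 and 0.96 and passed (adjusted p 0.0448 and 0.0421).

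Marker sums are on library totals, without TMM scaling. On days 2 and 4 those of fat, endothelial, red blood, neutrophil and T cells all lay higher in EXP, without overlap. Those of melanocytes did so on day 2. Some gaps were narrow, as for T cells on day 2 (CTRL up to 4.1 CPM, EXP from 4.86). TMM factors that day were 0.8019 to 0.8926 in CTRL and 1.066 to 1.265 in EXP. Whether the gaps remain under TMM scaling was not tested. Sums of pericytes and smooth muscle on days 1 and 2, and of keratinocytes on day 2, lay lower in EXP without overlap. The summed CPM of 6 adipocyte markers was 56.0, 103 and 272 in the EXP libraries of day 4 and 0.327 to 1.41 in CTRL, where Plin1 and Lep had no count. On TMM-scaled totals, in EXP replicate 1 of day 4 Adipoq was at 0 and Fabp4 at 41.8 CPM, with Steap4 at 516. In replicate 2 Adipoq was at 16.8 and Fabp4 at 64.1, with Steap4 at 997, and in replicate 3 Adipoq was at 52.9 and Fabp4 at 160, with Steap4 at 585. On day 2 the sum was 78.6, 7.30 and 16.1 in EXP and 0.200 to 0.885 in CTRL, and on day 1 it was 0.963 to 9.72 in EXP and 1.33 to 25.6 in CTRL. On day 4 the 6 endothelial markers summed to 21.4 to 54.7 CPM in EXP and 3.53 to 8.74 in CTRL, with Tek holding most of it, and the 7 red blood cell markers to 12.9 to 125 and 2.43 to 11.9. Macrophage markers summed to 101 to 167 CPM in EXP and 107 to 133 in CTRL on day 4, with Csf1r and Cd14 the most abundant, Adgre1 at most 0.179 and Fcgr1 at most 0.242. Neutrophil markers on that day summed to 0.886 to 3.68 CPM in EXP and 0.145 to 0.294 in CTRL. T cell markers summed to 12.1 to 38.3 CPM in EXP and 0.29 to 5.89 in CTRL, with Cd3e the most abundant. In any library Ptprc, the gene of CD45, reached at most 0.248 CPM and Pecam1, that of CD31, at most 3.76. The sums count marker RNA, and whether it came from such cells was not tested. Nor was the part of these cells in the results.

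Tfrc, the transferrin receptor that brings in transferrin-bound iron, was the member called higher on all 3 days, a pattern found in 2.50% of all genes. Day 1 had 6.18, 9.62, 9.23 and 9.04 CPM in CTRL and 39.2, 21.6, 18.8, 22.7 and 28 in EXP. Day 2 had 11.4, 12 and 13.6 CPM in CTRL and 30.3, 21.4 and 27.3 in EXP. On both days every EXP library stood above every CTRL library. Day 4 had 18.4, 18.6, 10.5 and 7.71 CPM in CTRL and 32.4, 18.0 and 28.6 in EXP, where EXP replicate 2 fell within the CTRL range. On the log2 scale Tfrc rose by 1.61 on day 1, with an SE of 0.27 (adjusted p 1.91e-04). The rise was 1.10 with an SE of 0.32 on day 2 (adjusted p 0.0246). On day 4 it was 0.93 with an SE of 0.29 (adjusted p 0.0252). The test for a difference between days did not pass (adjusted p 0.435). The call of day 2 was lost without CTRL replicate 1 (1.04, adjusted p 0.0759), CTRL replicate 2 (1.08, 0.0740), EXP replicate 1 (0.99, 0.105) or EXP replicate 3 (1.06, 0.0595). That of day 4 was lost without CTRL replicate 3 (0.82, 0.0741), CTRL replicate 4 (0.74, 0.0757) or EXP replicate 1 (0.76, 0.133), with limma voom (0.68, 0.119), in a fit of day 4 alone (0.92, 0.110), with the split as a covariate (0.87, 0.0519) and among low-side libraries (0.51, 0.399).

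Slc39a14 encodes ZIP14, a carrier of iron not bound to transferrin, which also carries zinc and manganese. On day 1 it was at 200, 146, 166 and 94.3 CPM in CTRL and at 358, 347, 494, 626 and 441 in EXP. On day 2 it was at 149, 151 and 139 CPM in CTRL and 547, 255 and 382 in EXP. Day 4 gave 171, 170, 82.1 and 170 CPM in CTRL and 268, 253 and 236 in EXP. Every EXP library exceeded every CTRL library on each day. Slc39a14 rose by 1.58 on day 1, with an SE of 0.26 (adjusted p 1.61e-04). Its rise of day 2 was 1.43, with an SE of 0.31 (adjusted p 0.00438). The 0.77 of day 4, with a 95% interval of 0.19 to 1.34, did not pass the threshold (adjusted p 0.0521). A difference between days was not shown (adjusted p 0.299).

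Slc11a2 encodes DMT1, which moves ferrous iron out of the endosome, and edgeR called it on day 1 and not on days 2 and 4. Its CPM on that day was 72.7, 73.9, 82.7 and 61.9 in CTRL and 167, 126, 95.6, 96.7 and 113 in EXP, with no overlap. On day 2 the CTRL libraries (119, 89.3 and 110) and the EXP libraries (119, 108 and 119) overlapped. On day 4 CTRL held 122, 121, 90.0 and 138 CPM and EXP 88.8, 95.4 and 151. The log2 fold change was 0.72 on day 1 (SE 0.18, adjusted p 0.00615), 0.12 on day 2 (adjusted p 0.765, 95% interval -0.34 to 0.58) and -0.08 on day 4 (adjusted p 0.821, 95% interval -0.51 to 0.35). Whether the effect changed between days did not pass (adjusted p 0.126), although it did without EXP replicate 3 of day 4 (0.0185). On library totals the day 2 value was 0.61 and passed (adjusted p 0.0309). The exons of Slc11a2 overlap those of Gm5475 on the other strand, and since it is not given here whether counting used the strand, its level is uncertain.

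**Figure D2:**
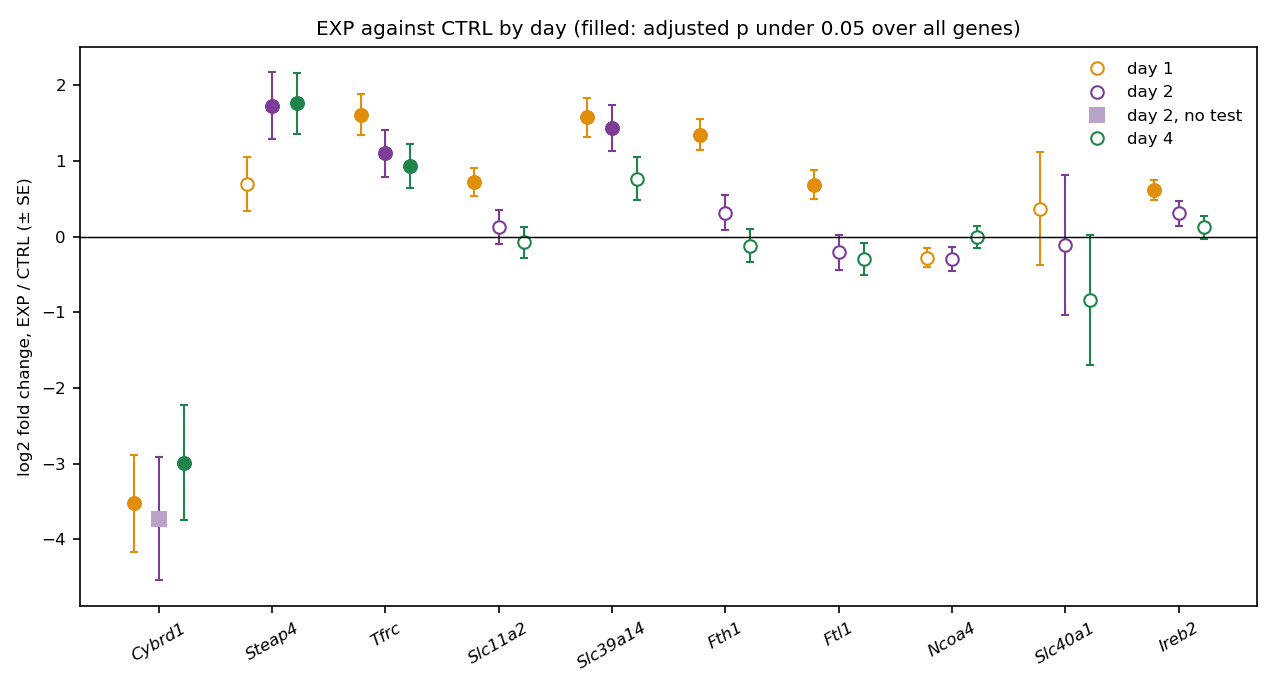
Log2 fold change of EXP over CTRL (y axis, points with SE) for the 10 members on days 1, 2 and 4, with filled points at an adjusted p under 0.05 over all genes and a square for the day 2 value of Cybrd1, which is given with no test. Fth1 goes from 1.35 on day 1 to 0.32 and -0.12, while Cybrd1 lies between -3.73 and -2.99 on the 3 days.

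With TMM scaling, edgeR called the mRNA of both ferritin chains higher on day 1 and called neither on the later days. Fth1, the heavy chain that oxidises iron as it enters the shell, was at 3001, 2789, 3472 and 2652 CPM in CTRL and 6825, 9581, 9164, 6352 and 5973 in EXP on day 1. By day 2 it was at 3078, 2972 and 3141 CPM in CTRL and 3884, 3268 and 4292 in EXP. Day 4 gave 2861, 3468, 2430 and 3661 CPM in CTRL and 1891, 3360 and 3316 in EXP. The lowest EXP library of day 1 lay well above the highest CTRL library, the arms still stood apart on day 2, and they overlapped on day 4. Fth1 rose by 1.35 on day 1, with an SE of 0.20 (adjusted p 6.80e-05). Neither 0.32 on day 2 (95% interval -0.17 to 0.80, adjusted p 0.405) nor -0.12 on day 4 (-0.58 to 0.34, adjusted p 0.732) passed. The effect differed between days (joint test, adjusted p 0.00909), by -1.03 from day 1 to day 2 and -1.47 from day 1 to day 4. Within EXP the level changed over days (adjusted p 3.79e-04), and within CTRL no change passed (adjusted p 0.985). On library totals without TMM scaling, which moves the median of all genes on day 2 to 0.49, the day 2 value of Fth1 was 0.79 and passed (adjusted p 0.0115).

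Ftl1 encodes the light chain, which helps the iron core form. Its own row held 119892 counts over all libraries, while 7 annotated copies with at least 95% identity to its transcript held 1254043, or 1050% of that number. The largest were Ftl1-ps1 (99.56% identity, 594447 counts), Ftl2-ps (98.73%, 448757 counts) and Gm15590 (99.09%, 180854 counts). In single libraries the row of Ftl1 was 7.34 to 10.7% of the sum of all 8, so how the counting divided the reads is uncertain and the sum is given beside it. The row of Ftl1 was at 200, 193, 154 and 154 CPM in CTRL and 322, 303, 240, 272 and 270 in EXP on day 1. The sum was at 1969, 2322, 1804 and 1943 CPM in CTRL and 3119, 3675, 3269, 3284 and 3580 in EXP. Both measures separated the arms on day 1, with a log2 fold change of 0.69 for the row (SE 0.19, adjusted p 0.00960) and 0.75 for the sum (SE 0.18, adjusted p 0.00331). The 3 copies named moved alike, with 0.74 in Ftl1-ps1, 0.84 in Ftl2-ps and 0.63 in Gm15590 (adjusted p 0.00346, 0.00106 and 0.0161). Another gene, Gm22133, shares exon bases with Ftl1 on the same strand.

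On day 2 the order of the arms in Ftl1 turned, with 249, 243 and 228 CPM in CTRL and 224, 201 and 197 in EXP, but the log2 fold change of -0.21 did not pass (SE 0.23, adjusted p 0.592). The summed light chain was at 2745, 2519 and 2366 CPM in CTRL and 2471, 2240 and 2134 in EXP (log2 fold change -0.16, adjusted p 0.681). Day 4 gave 183, 201, 140 and 231 CPM of Ftl1 in CTRL and 88.0, 178 and 197 in EXP (-0.29, adjusted p 0.334), and -0.08 for the sum (adjusted p 0.805). The day dependence of the effect was at the edge of the threshold, with an adjusted p of 0.0441 for the row and 0.0469 for the sum. For the row it was lost in 16 of 22 fits that each left out a library, where it ran from 0.0141 to 0.102. Within EXP the change over days passed for the row (0.0190) and the sum (0.0113), and it was lost for the row in a fit of the EXP libraries alone (0.0754).

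The CPM of Fth1 divided by that of the summed light chain was 1.20 to 1.92 in CTRL and 1.67 to 2.80 in EXP on day 1, 1.12 to 1.33 and 1.46 to 2.01 on day 2, and 1.41 to 1.70 and 1.44 to 1.58 on day 4. The arms overlapped in this ratio on days 1 and 4 and stood apart on day 2. No test was made of it.

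**Figure D3:**
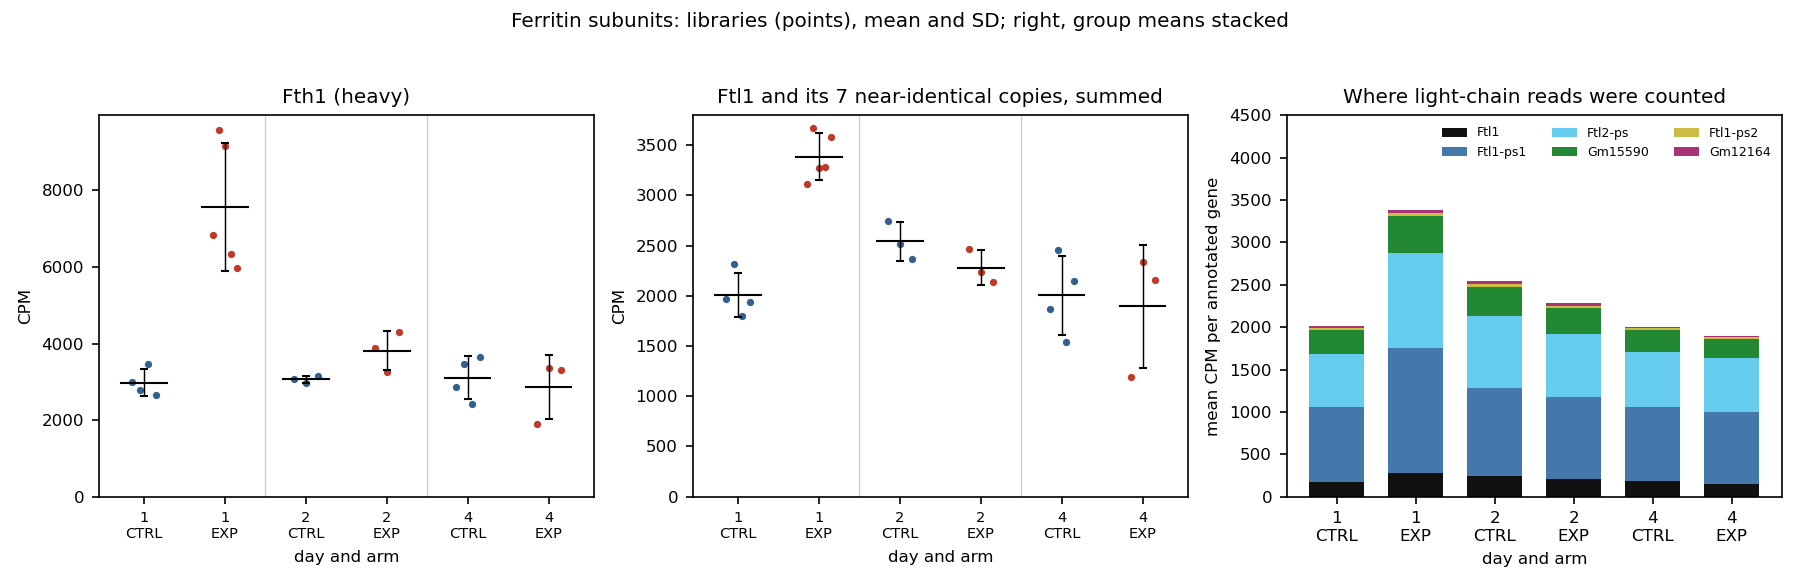
Ferritin CPM by day and arm: Fth1 (left) and the sum of Ftl1 with its 7 near-identical copies (middle) in each library, with mean and SD, and the mean CPM counted to Ftl1 and its 5 largest copies (right, stacked bars). Both chains stand highest in EXP on day 1, at 7579 ± 1670 (SD, n = 5) and 3385 ± 233 CPM (SD, n = 5), and the black share of Ftl1 itself is the smaller part of each bar.

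Ncoa4, the receptor that delivers ferritin to autophagy so that its iron is released, was called on no day by edgeR, while limma voom called it lower on day 1 (log2 fold change -0.32, adjusted p 0.0470). It stood at 39.4, 37.4, 33.6 and 38.0 CPM in CTRL and 36.6, 31.5, 30.8, 28.1 and 25.7 in EXP on day 1. Day 2 gave 36.4, 29.7 and 38.5 CPM in CTRL and 26.6, 27.9 and 30.7 in EXP. On day 4 CTRL held 40.9, 35.8, 42.9 and 32.9 CPM and EXP 37.5, 40.5 and 36. The arms overlapped on each day. The log2 fold changes were -0.28 (adjusted p 0.103), -0.30 (adjusted p 0.218) and -0.01 (adjusted p 0.982), with 95% intervals of -0.54 to -0.02, -0.62 to 0.03 and -0.31 to 0.29. A copy named Gm6768 matches it at 99.89% over 1878 bases and held 85.8% as many counts, and the sum of both was not called on any day either (adjusted p 0.111, 0.382 and 0.871).

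Slc40a1, or ferroportin, the iron exporter, was scarce. Day 1 had 1.65, 0.509, 2.00 and 1.07 CPM in CTRL and 5.00, 1.37, 0.254, 0.382 and 1.46 in EXP. Over all groups the libraries held 7 to 143 counts, and the arms overlapped on every day. Its log2 fold changes were 0.37 (95% interval -1.19 to 1.92), -0.11 (-2.05 to 1.82) and -0.84 (-2.63 to 0.94), with adjusted p of 0.751, 0.955 and 0.508. The intervals hold changes of more than 2-fold either way on days 1 and 2, and the EXP libraries of day 1 ranged from 0.254 to 5.00 CPM.

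Ireb2, which encodes iron regulatory protein IRP2, was at 16.8, 19.8, 20.7 and 20.2 CPM in CTRL and 27.9, 26.9, 31.8, 28.8 and 33.3 in EXP on day 1. Day 2 had 21.3, 20.3 and 19.5 CPM in CTRL and 26.7, 23.6 and 25.2 in EXP, and day 4 had 28.9, 25.5, 18.9 and 23.3 against 30.4, 22.2 and 26.1. The arms stood apart on days 1 and 2 and overlapped on day 4. Ireb2 rose by 0.62 on day 1 (SE 0.14, adjusted p 0.00207), and 0.30 on day 2 (adjusted p 0.234) and 0.12 on day 4 (adjusted p 0.604) did not pass. Among the high-side libraries of day 1 the difference was 0.48 (adjusted p 0.159), and on library totals the day 2 value was 0.78 (adjusted p 0.0112). Aco1, which encodes the partner IRP1 and was singled out after its values were seen, had log2 fold changes of 0.17, 0.46 and 0.21 on days 1, 2 and 4 and was not called (adjusted p 0.357, 0.0681 and 0.349).

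In CTRL, no member changed over the days at an adjusted p under 0.05 by edgeR, a call made for 0.291% of all genes. At an unadjusted p under 0.05 there was 1 such member, Slc11a2 (p 0.00504, adjusted p 0.175), and limma voom called it (adjusted p 0.0316). In EXP, edgeR called Fth1 and Ftl1, against 14.3% of all genes. Steap4, at an adjusted p of 0.0612 there, was called by DESeq2 (0.0191), with the split as a covariate (0.0150) and without EXP replicate 2 of day 1 (0.0282). CPM per kilobase of the longest coding transcript in CTRL on day 1 ranked the members from Fth1 at 1993 ± 240, the row of Ftl1 at 181 ± 25.4, Steap4 at 59.0 ± 14.9, Slc39a14 at 30.8 ± 9.01 and Slc11a2 at 16.5 ± 1.93 down to Ncoa4 at 9.12 ± 0.608, Cybrd1 at 4.59 ± 0.775, Ireb2 at 3.36 ± 0.305, Tfrc at 1.74 ± 0.323 and Slc40a1 at 0.388 ± 0.195 (SD, n = 4). Neighbours in that order differed by more than the SD of either. With near-identical copies summed, the order turned: the light chain, at 2076 ± 228, lay within its SD of Fth1, and Ncoa4, at 16.8 ± 1.04, within its SD of Slc11a2 (SD, n = 4). This order depends on the transcript lengths used, 1494 bases for Fth1 and 968 for the light chain. In plain CPM, Fth1 was 1.20 to 1.92 times the summed light chain in these CTRL libraries. In EXP on that day Tfrc, at 5.33 ± 1.65, lay within its SD of Ireb2, at 5.15 ± 0.464, and Cybrd1, at 0.397 ± 0.167, lay within its SD of Slc40a1, at 0.502 ± 0.573 (SD, n = 5).

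A further 76 genes of iron and heme handling were listed, also with earlier results known, and 72 were tested. On day 1, 13 were higher and 11 lower in EXP, with a median of -0.05. On day 2 the counts were 8 and 3 (median 0.16), and on day 4 they were 22 and 7 (median 0.24). The shares called were 33.3%, 15.3% and 40.3%, beside 28.6%, 13.4% and 22.5% of all genes. Since the list was drawn up with earlier results known, nothing is read from these shares or from those by role below. The day 2 count was lowest, 6, without EXP replicate 1. The day 4 count was 16 without EXP replicate 1, 15 without EXP replicate 2 and 0 among the low-side libraries, where 1 gene in the whole table was called.

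Among 13 genes of uptake and reduction, 4 rose and 4 fell on day 1, 5 and 2 on day 2, and 6 and 2 on day 4. These are 61.5%, 53.8% and 61.5% of the 13, beside 28.6%, 13.4% and 22.5% of all genes. They are descriptions of a list drawn up with earlier results known. Genes are named by day for the smallest p, so a gene not named on a day may still have changed then. Steap1 went from 0.318 ± 0.208 to 10.7 ± 4.09 CPM on day 2 (SD, n = 3 each; log2 fold change 5.07, adjusted p 7.15e-04) and from 0.671 ± 0.293 (SD, n = 4) to 39.0 ± 34.6 (SD, n = 3) on day 4 (5.86, adjusted p 1.03e-04). The arms of Steap1 already stood apart on day 1, at 0.551 to 1.11 CPM in CTRL and 2.61 to 11.7 in EXP. Steap2 rose by 2.58 on day 2 (adjusted p 0.00435) and 3.54 on day 4 (adjusted p 2.91e-04). Steap3, the reductase of the transferrin endosome in red cell precursors, fell by 1.05 on day 1, from 226 ± 7.97 (SD, n = 4) to 109 ± 15.9 CPM (SD, n = 5; adjusted p 2.63e-05), and its effect differed between days (adjusted p 0.00883). Lcn2, which binds iron-loaded siderophores, rose by 5.37, 8.08 and 5.15 on days 1, 2 and 4 (adjusted p 8.21e-04, 0.00203 and 0.00341), from 2 to 8 counts a library in CTRL on day 2, so the size on that day is imprecise. Its receptor gene Slc22a17 fell by 1.88 on day 2 (adjusted p 0.00852), which was lost without EXP replicate 1 (-1.53, adjusted p 0.0588).

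Scara5, a scavenger receptor that takes up ferritin, was among the more abundant of these genes in CTRL. On day 2 it had 1574, 1639 and 2018 CPM in CTRL and 114, 314 and 281 in EXP. The fall was 2.88 on the log2 scale (SE 0.51, adjusted p 0.00124), with no overlap. Nor did the arms overlap on day 1, at 890 to 1608 CPM in CTRL and 301 to 751 in EXP. On day 4 they also stood apart, at 1375 to 2346 CPM in CTRL and 131 to 793 in EXP. Cd44, the hyaluronan receptor that also carries iron bound to hyaluronan, rose by 1.37 on day 1 (adjusted p 1.52e-05) and 1.11 on day 2 (adjusted p 0.00142). Its values on day 4 were 204 to 311 CPM in CTRL and 378 to 460 in EXP. Slc39a8, or ZIP8, a close relative of ZIP14, rose by 1.90 on day 4 (adjusted p 0.00175). Trf, transferrin itself, rose on day 4 from 19.5 to 40.3 CPM in CTRL to 40.5, 233 and 280 in EXP (2.72, adjusted p 0.00347). Its EXP libraries ran in the order of their adipocyte sums, while Steap1, Steap2 and Slc39a8 ran in the reverse order. The part of fat cells in these values was not tested.

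In the ferroxidases and heme genes the calls lay on different days. Cp, ceruloplasmin, which oxidises iron at the cell surface, rose on day 4 from 104 ± 28.5 (SD, n = 4) to 256 ± 107 CPM (SD, n = 3; 1.29, adjusted p 0.00371). Hmox1, heme oxygenase, which frees iron from heme, was at 94.1, 166, 117 and 90.5 CPM in CTRL and 980, 1518, 358, 558 and 478 in EXP on day 1, with no overlap. It rose by 2.73 on day 1 (SE 0.38, adjusted p 4.67e-05), and its effect differed between days (adjusted p 0.0252). The red blood cell markers summed to 2.67 to 5.55 CPM in EXP and 3.99 to 7.61 in CTRL on that day. Calls among 8 heme synthesis genes made up 37.5% on day 1, 37.5% on day 2 and 75.0% on day 4, beside 28.6%, 13.4% and 22.5% of all genes. These shares too are descriptions only. On day 1, 0 rose and 3 fell, among them Ppox, a late enzyme of the path (-0.92, adjusted p 7.15e-04, and -0.92 with adjusted p 0.0633 among high-side libraries). On day 2 Alas1, the rate-limiting first enzyme, fell by 1.12 (adjusted p 0.00701, lost at -0.97 and 0.0567 without EXP replicate 1), and 2 others rose. Day 4 had 4 higher and 2 lower.

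Of 29 tested genes for mitochondrial iron import and iron-sulfur clusters, 5 rose and 4 fell on day 1, 1 rose on day 2, and 7 rose and 1 fell on day 4. The shares called, 31.0%, 3.45% and 27.6%, were near the 28.6% and 22.5% of all genes on days 1 and 4 and below the 13.4% of day 2. The scaffold genes of the cytosolic cluster machinery, Nubp1 and Nubp2, rose by 1.19 and 0.70 on day 1 (adjusted p 1.54e-04 and 3.70e-04), and their partner Ciapin1 by 1.14 (adjusted p 3.25e-04). Nubp1 rose by 1.08 on day 2 (adjusted p 0.00467) and was the gene called then. Ciao2a, which helps hand clusters to target proteins, rose by 0.99 on day 4 (adjusted p 0.00437), a call lost in a fit of day 4 alone (0.98, adjusted p 0.0552). Within the low-side libraries of day 4, the genes named for that day kept their direction and none was called, with values from 0.78 for Ciao2a to 5.87 for Lcn2. The exons of Trf, Cp, Ciapin1, Nubp1, Alas1 and Ppox overlap those of other genes, which adds uncertainty to their counts.

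**Figure D4:**
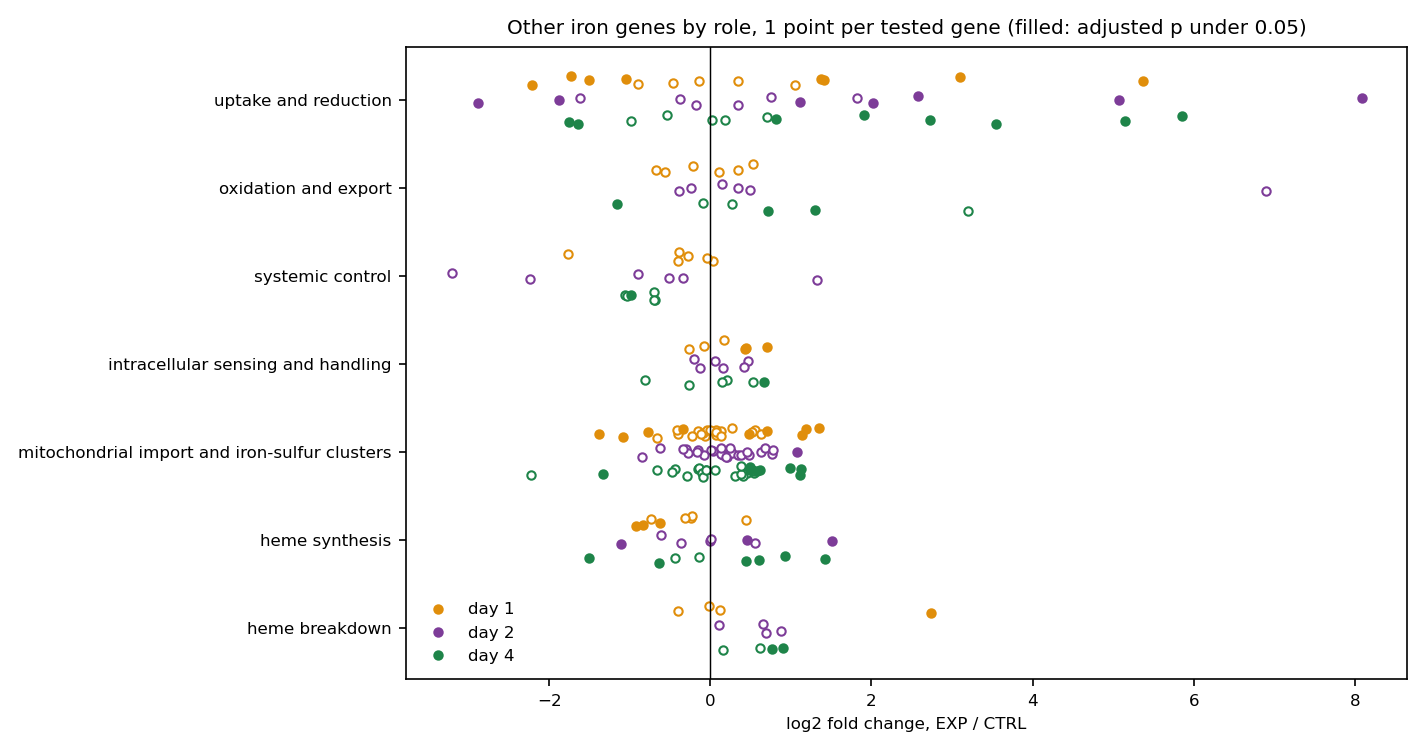
Log2 fold change of EXP over CTRL (x axis) for the 72 tested further iron genes, 1 point per gene and day, grouped by role, with filled points at an adjusted p under 0.05. Filled points of day 4 lie at higher values in EXP for 22 genes and at lower values for 7, and the widest spread is in uptake and reduction.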

How the data were processed

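Ultra-low-input paired-end RNA-seq libraries of sorted fibroblasts were made by the authors, who deposited 1 table of raw read counts per Ensembl gene, 1 column per library, per the labels. The submitters' processing notes name Trimmomatic and build mm39. The aligner, counter, annotation and strand setting are not given in the sources used here, so reads of overlapping or near-identical genes may be divided in unknown ways. Symbols came from GENCODE M21 (52081 of 55414 identifiers); coordinates are not printed because builds differ. 0 columns belonged to no labelled library.

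Counts were tested in R 4.3.3 with edgeR 4.0.16 (filterByExpr, minimum count 10, 17554 genes; TMM; robust quasi-likelihood F-test on all 22 libraries, 1 mean per group, 16 residual degrees of freedom). Adjusted p is Benjamini-Hochberg over all genes of a contrast, called under 0.05, two-sided. CPM of genes is TMM-scaled, that of marker sums and sort genes is on library totals, and log2 CPM used a prior count of 2. Replicates of a group were no duplicates, with chi-square per degree of freedom of at least 25.5. Copies were sought by BLAST (95% identity, 200 bases). The members and gene lists were chosen with earlier results of these data known. Named were all members, per day up to 8 called further iron genes of at least 1 CPM with the smallest p, and for Cybrd1 the 5 most and 3 least correlated genes. Some results under this rule are not reported here. The test was tested on simulated data. Deviations from group means correlated between a CTRL and an EXP library with the same number at -0.066 to 0.164, not over 0.1 in every pair, so numbers were not taken as pairs. Alternatives were DESeq2 1.42.0, limma 3.58.1 voom, other scaling, no filter, fits of the compared groups alone, a replicate block, the library split, and leaving out each library. Summing near-identical copies was chosen after seeing the data.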

Additional observations from a re-analysis of the deposited data

Results flagged for a closer look

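In 8 of 90 groups of 4 or 5 libraries, 1 library stood apart from the others by more than Dixon's 95% criterion, where chance gives about 4.5. Among the members, CTRL replicate 1 of day 1 had 6.18 CPM of Tfrc, below 9.04 to 9.62 in the others. CTRL replicate 3 of day 4 had 82.1 CPM of Slc39a14, below 170 to 171. EXP replicate 1 of day 1 had 5.00 CPM of Slc40a1, above 0.254 to 1.46. For the further iron genes, Lcn2 was at 4.37 CPM in CTRL replicate 1 of day 1 (others 2.22 to 2.36) and Ppox at 11 in CTRL replicate 2 of day 4 (others 15.5 to 16.4). Slc22a17 was at 9.12 CPM in EXP replicate 1 of day 1 (others 3.95 to 4.98), Steap2 at 9.43 in CTRL replicate 1 of day 4 (others 3.64 to 4.49) and Trf at 71.7 in EXP replicate 2 of day 1 (others 18.0 to 21.6).

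The EXP effect differed between the 3 days by the joint edgeR test in Fth1 (adjusted p 0.00909) and Ftl1 (adjusted p 0.0441). Both were higher in EXP on day 1 and not called on days 2 and 4.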

How the results depend on the processing

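Of 1210 recomputed member values, 1133 kept the call and any direction, 39 lost a call and 13 gained one. In 25 the sign changed, all in values that had not been called. Values of the day difference and of changes within an arm are adjusted p without a sign. A sign could thus change only in comparisons of EXP with CTRL on a day. The total also holds the day 2 values of Cybrd1, which are described only. The cause of the changes in call or sign was not tested. Members called were 7 on day 2 on library totals, 2 to 4 there without single libraries, 1 on day 4 in a fit of that day alone, 0 on day 4 in low-side libraries, 2 to 3 on day 4 without single libraries, 1 within CTRL by voom and 1 within EXP in a fit of that arm. For the day difference they were 1 without the filter and 1 to 3 without single libraries. With the replicate block 1 member was called for the day difference and 1 within EXP (Ftl1 lost, adjusted p 0.104 and 0.0657), all genes called fell to 775, 1432 and, within CTRL, 19, and no other member's call changed.

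Signs turned as follows. Library totals: Ftl1 0.27, Ncoa4 0.18 and Slc40a1 0.29 on day 2, and Slc11a2 0.21, Fth1 0.16 and Ncoa4 0.33 on day 4. Totals moved the median of all genes to 0.21, 0.49 and 0.36 and the share of calls that were higher from 48.7, 57.5 and 57.0% to 66.2, 90.5 and 80.8%. Voom: Slc40a1 -0.44 on day 1, Ncoa4 0.02 and Ireb2 -0.01 on day 4. Split covariate: Slc11a2 0.04 and Ncoa4 0.04 on day 4. Low side: Ireb2 -0.05 on day 4. No filter: Ncoa4 0.02, and copies summed 0.04, on day 4. Without single libraries, Slc40a1 ran from -0.59 to 0.65 on day 1 and -1.37 to 0.34 on day 2, and on day 4 Slc11a2 from -0.34 to 0.07, Fth1 from -0.27 to 0.11 and Ncoa4 from -0.07 to 0.06. Slc39a14 on day 4 gained a call with DESeq2 (0.76, adjusted p 0.0400) and on totals (1.11, 0.0140).

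All genes called moved by over 1.5 times to 2210 on day 1 (high side), 4567 (voom) and 4632 (totals) on day 2, 1128 (day alone) and 1 (low side) on day 4, 2609 for the day difference (DESeq2), 1267 within EXP (arm alone), and 525 (DESeq2), 602 (voom), 163 (totals), 326 (arm alone) and 29 (split covariate) within CTRL. Without single libraries they were 891 to 2177 on day 2, 1633 to 5011 on day 4, 898 to 2572 for the day difference, 5 to 92 within CTRL and 1367 to 3415 within EXP. Further iron genes called on day 2 were 17 (DESeq2), 27 (voom), 35 (totals) and 21 (day alone), and on day 4 10 (day alone). A low-side comparison of day 1 was not made because CTRL had 1 library there. Slc40a1 and Cybrd1 in EXP rest on few counts.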
